A study of Homo sapiens with 4 samples.

Results

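Binding regions of ONECUT2 on chromosome 19 outside its large zinc-finger gene clusters are described here. They are the peaks whose start lay on chromosome 19 (hg19) and outside 6 intervals, from 11.7 to 12.8, 19.8 to 24.4, 36.7 to 38.4, 44.2 to 45.0, 52.3 to 54.0 and 56.1 to 59.1 Mb. This position rule kept 485 of 14431 peaks of ChIP replicate 1, 301 of 11990 peaks of ChIP replicate 2 and 169 of 4297 regions of the irreproducible discovery rate (IDR) list. No peak in any of the 3 lists crossed an edge of an interval.

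The study mapped ONECUT2 by chromatin immunoprecipitation and sequencing (ChIP-seq) in 22Rv1 cells, a line grown from a human prostate carcinoma and described by the series as castration resistant. It has 2 ChIP libraries made with an ONECUT2 antibody raised in rabbit and 2 input DNA libraries made without antibody, all from cells of this line fixed with 1% formaldehyde for 10 min. The labels name neither separate cultures nor a line without ONECUT2, so the spread between the ChIP libraries may be technical and no control for antibody specificity was analysed here. Each replicate list gives the peaks of 1 ChIP library over input, and fold enrichment is the ratio of ChIP fragments to a local background from input at the summit of the peak.

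ONECUT2 belongs to the ONECUT family, which binds DNA through a single CUT domain and a homeodomain. It is best known from the development of liver, pancreas and neurons, and in prostate cancer it is known as a factor that opposes androgen receptor signalling and favours a neuroendocrine program. Chromosome 19 is known as the most gene-rich human chromosome and as the home of many KRAB zinc-finger genes, which lie in tandem clusters. In the RefSeq gene table it held 1451 of 19974 protein-coding genes on the autosomes and X (7.26%) in 1.95% of their length, and 263 of its genes had a zinc-finger symbol beginning with ZNF, ZFP, ZSCAN or ZIK. That table follows a later genome build, so it was used for counts and names, and no peak was assigned to a gene.

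The 6 intervals and the gap between the arms divide the chromosome into 8 stretches. On the short arm these are S-1 from 0 to 11.7 Mb, S-2 from 12.8 to 19.8 Mb and the short S-3 of 0.282 Mb beside the gap. On the long arm they are L-1 from the gap to 36.7 Mb, L-2 from 38.4 to 44.2 Mb, L-3 from 45.0 to 52.3 Mb, L-4 from 54.0 to 56.1 Mb and L-5, the last 0.0290 Mb. S-3 and L-5 held no peak in any list, and the other 6 stretches add up to nearly all of the 43.2 Mb studied. Of the peaks, 244 lay on the short arm and 241 on the long arm in replicate 1, 144 and 157 in replicate 2, and 82 and 87 in the IDR list.

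Most of these peaks were modest. The median fold enrichment was 3.03 in replicate 1 and 3.09 in replicate 2, with maxima of 21.9 and 15.3. At the summit of the median peak replicate 1 had 39 ChIP fragments with a background of 13.1, and replicate 2 had 40 with 13.2. On the other autosomes and X the median background was lower, at 10.1 and 7.32 fragments. In the zinc-finger intervals it was 6.57 and 5.73. The background was at its floor, the lowest value in a list, for 2.27% and 2.33% of the peaks outside the intervals, against 23.5% and 32.5% inside them and 16.8% and 28.5% on the other autosomes and X. The part of this difference in the densities and shares given below was not tested.

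Called regions were dense on both arms and uneven along them. The IDR list had 3.91 regions per Mb outside the intervals (exact Poisson interval 3.34 to 4.55), against 1.36 on the other autosomes and X, a ratio of 2.87 (interval 2.44 to 3.35). The ratio was 2.49 (interval 2.27 to 2.73) for replicate 1, with 11.2 against 4.50 peaks per Mb, and 1.84 (interval 1.63 to 2.06) for replicate 2, with 6.96 against 3.79. Chromosome 17, another gene-rich chromosome, had 2.83 IDR regions per Mb, and the ratio to it was 1.38 (interval 1.12 to 1.69). Chromosome 19 as a whole held 233 of the IDR regions on the autosomes and X (5.43%), below its 7.26% of their protein-coding genes. Density per gene was not computed for the part studied here. All intervals are at 95% and leave out any error beyond counting, such as that from peaks clustering together. Lengths of the other chromosomes, 17 included, keep their gaps, which raises these ratios by an amount not measured here.

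Stretch L-3 was the densest in each of the 3 lists. Replicate 1 had 16.99 peaks per Mb there (interval 14.1 to 20.3) and replicate 2 had 11.8 (interval 9.42 to 14.5), with 6.16 regions per Mb in the IDR list (interval 4.50 to 8.25). Stretch L-1, which adjoins the centromere, was the sparsest of the 6 occupied stretches. Its densities were 5.21 for replicate 1 (interval 3.83 to 6.93), 2.33 for replicate 2 (interval 1.44 to 3.56) and 1.44 for the IDR list (interval 0.768 to 2.47). The intervals of L-3 and L-1 did not overlap in any list, so the long arm held both extremes. S-1 had 13.8, 8.38 and 4.53 per Mb in replicate 1, replicate 2 and the IDR list, and S-2 had 11.9, 6.57 and 4.14. L-2 had 8.62, 6.21 and 3.10, and L-4 had 9.52, 6.67 and 5.24.

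**Figure D1:**
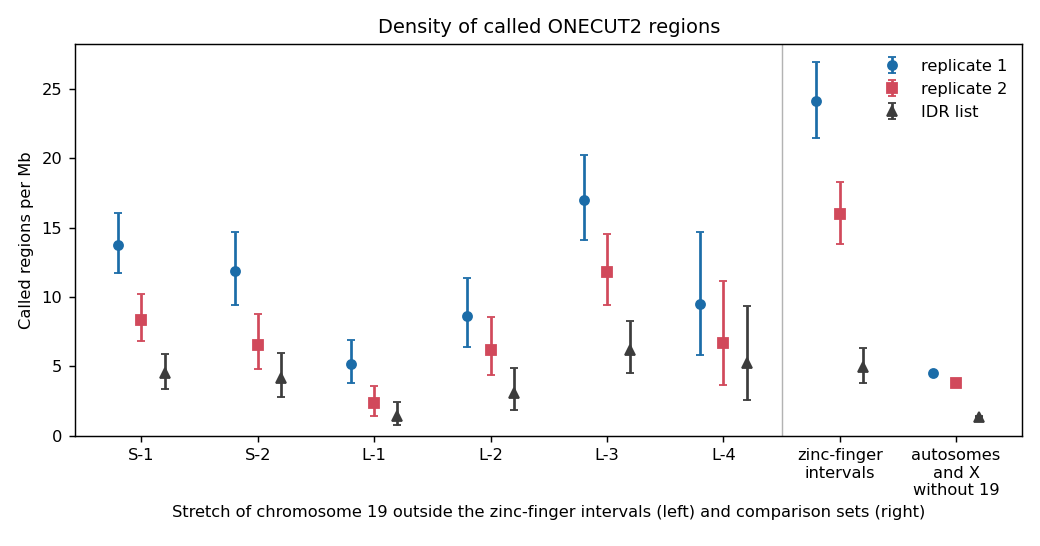
Called regions per Mb (y axis) in replicate 1 (circles), replicate 2 (squares) and the IDR list (triangles), with exact 95% Poisson intervals, for the 6 occupied stretches on the short (S) and long (L) arm, the zinc-finger intervals and the autosomes and X without 19 (x axis). L-3 was the highest and L-1 the lowest of the stretches in all 3 lists, and the zinc-finger intervals stood above every stretch in both replicate lists.

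Between whole arms the contrast was small. The short arm had 12.9 peaks per Mb and the long arm 9.94 in replicate 1, a ratio of 1.29 (interval 1.08 to 1.55). In replicate 2 the short arm had 7.59 and the long arm 6.47, a ratio of 1.17 (interval 0.928 to 1.48), and in the IDR list the ratio was 1.20 (interval 0.879 to 1.65), intervals that include 1. Among peaks of fold 6 or more the ratio was 1.38 in replicate 1 (interval 0.777 to 2.44), while replicate 2 gave 1.503 (interval 0.748 to 3.05).

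Outside the zinc-finger intervals there were fewer weak peaks per Mb than inside them. Below a fold enrichment of 6, there were 9.97 peaks per Mb outside and 22.6 inside the intervals in replicate 1, a ratio of 0.442 (interval 0.380 to 0.515). In replicate 2 there were 6.11 outside and 14.9 inside, a ratio of 0.410 (interval 0.339 to 0.497). At a fold of 6 or more the ratios were 0.806 (interval 0.474 to 1.42) and 0.789 (interval 0.416 to 1.58), and for IDR regions the ratio was 0.788 (interval 0.588 to 1.07). The last 3 intervals include 1, so no difference in density of strong peaks or IDR regions was detectable at these counts. Whether the ratio differed between weak and strong peaks was not tested.

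Among the 39 windows of 1 Mb that lay wholly outside the intervals and the gap, the densest run was from 49 to 52 Mb. These 39 windows held 0 to 24 peaks in replicate 1 (median 11), 0 to 20 in replicate 2 (median 6) and 0 to 15 IDR regions (median 3). The window from 51 to 52 Mb had 24 peaks in replicate 1 and 18 in replicate 2, with 8 IDR regions. The window from 49 to 50 Mb had 21 and 16 peaks and the most IDR regions, 15, and that from 50 to 51 Mb had 20 and 20 peaks and 8 IDR regions. On the short arm the window from 9 to 10 Mb also had 20 peaks in each replicate, but 5 IDR regions, 2 strong peaks in replicate 1 and 1 in replicate 2, and a median background of 6.63 and 5.35 fragments, which was lower than in the long-arm windows named here. The windows from 4 to 5 and from 18 to 19 Mb followed in the IDR list with 10 regions each. Windows lying partly in an interval or the gap were not ranked. That from 12 to 13 Mb had only 0.2 Mb outside the intervals, with 12 peaks in replicate 1, 5 in replicate 2 and 5 IDR regions. Per Mb this was denser than any of the 39 whole windows in each list.

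The counts per window kept a similar order in the replicates, with a rank correlation of 0.841 over the 39 windows, as a description, since the windows share both libraries and the input background. Replicate 1 had more peaks in 32 windows, both had the same number in 7, and replicate 2 had more in none of the 39. Peaks of fold 6 or more were present in 24 of these windows in replicate 1 and in 21 in replicate 2.

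The most compact group of shared peaks lay from 51.3 to 51.4 Mb on the long arm. This group and the bins of 100 kb were chosen after the values were seen. Of 150 bins with at least 1 overlapping peak pair, 99 held a single pair, and this one held 9, from 14 peaks in replicate 1 and 13 in replicate 2. Its strongest site, chr19:51353273-51355275, had a fold enrichment of 18.4 in replicate 1 and 13.7 in replicate 2, with 142 and 116 fragments. The next, chr19:51338654-51340050, had 6.63 and 5.25, with 145 and 131 fragments. The remaining 7 pairs had lower folds, such as 4.66 and 4.78 at chr19:51345450-51345890 and 2.30 and 2.48 at chr19:51307524-51307939. As background, the distal part of the long arm carries the kallikrein genes, among them KLK2 and KLK3, androgen-responsive genes of the prostate of which KLK3 encodes prostate-specific antigen. The position of these genes relative to the peaks was not analysed here.

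The longest stretches without peaks lay in L-1, near the centromere, with shorter ones in L-2 and L-3. No peak of either replicate was called from 30206686 to 32836566, 2.63 Mb of stretch L-1, where the replicate 2 gap had nearly the same ends. From the edge of the centromeric gap to 33071015 the IDR list had no region over 5.39 Mb. In replicate 2 the first peak of the long arm began 2.42 Mb from that edge. A further stretch of 1.07 Mb without replicate 1 peaks began at 42902067 in L-2, and replicate 2 had none over 1.13 Mb from 42901969. The second longest stretch without an IDR region lay in L-3, the densest of the stretches, from 47748115 to 48948541 (1.20 Mb).

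Strong sites made up a larger share of the peaks than over the whole lists, and a share close to that of chromosome 17. In replicate 1, 54 of 485 peaks had a fold enrichment of at least 6 (11.1%, exact Clopper-Pearson interval 8.48% to 14.3%), against 7.46% of all its peaks, and in replicate 2 it was 37 of 301 (12.3%, interval 8.80% to 16.5%), against 7.08%. On chromosome 17 the shares were 10.7% (interval 8.35% to 13.4%) and 11.96% (interval 8.92% to 15.6%). At least 10-fold enrichment was found at 24 peaks of replicate 1 (4.95%) and 17 of replicate 2 (5.65%), against 2.53% and 1.99% of all peaks. On chromosome 17 it was found at 20 of 608 peaks in replicate 1 and 11 of 393 in replicate 2. Strong peaks were wide, with a median of 1251 bp in replicate 1 and 1250 bp in replicate 2, against 307 and 311 bp below a fold of 6. From summit to summit, the median distance to the nearest strong peak was 137 kb in replicate 1 and 167 kb in replicate 2, against 685 and 928 kb for strong peaks on the other autosomes and X and 438 and 605 kb on chromosome 17. Over peaks of any fold outside the intervals the median distance to the nearest was 9.47 and 15.7 kb, against 3.94 and 4.83 kb on the other autosomes and X.

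Strong sites were spread over both arms. Of 37 pairs with a fold of 6 or more in both replicates, 15 lay in S-1, 5 in S-2, 1 in L-1, 3 in L-2, 9 in L-3 and 4 in L-4. Stretch L-4, the shortest of the 6, had the highest density of strong peaks, at 2.38 per Mb in replicate 1 (5 peaks, interval 0.773 to 5.56). Its value in replicate 2 was 1.90 (4 peaks, interval 0.519 to 4.88). Stretch L-3 had 2.33 (interval 1.36 to 3.73) in replicate 1, and replicate 2 had 1.23 there (interval 0.564 to 2.34). These intervals are wide and do not set L-4 apart from L-3, L-2, S-1 or S-2. The interval of L-1 (0.00281 to 0.618 in each replicate) lay below that of L-4 in replicate 1 but overlapped it in replicate 2.

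On the short arm the pair of highest mean fold enrichment was chr19:460472-463032. Its fold was 21.9 in replicate 1 and 14.7 in replicate 2, or 18.3 ± 5.07 (SD, n = 2), and it ranked 14 and 56 among all peaks of the lists. It had 323 and 294 fragments, so the fragments stood in a ratio of 1.099 while the folds stood in a ratio of 1.49. The background was 13.8 in replicate 1 and 19.03 in replicate 2, although the summits were 35 bp apart. The second site of the arm, chr19:2952808-2953827, had 20.7 and 15.3 with 170 and 137 fragments over a low background of 7.24 and 8.03. It reached a mean fold of 18.01 ± 3.86 (SD, n = 2) but ranked only 263 by IDR signal.

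The next sites of the short arm lay from 16.6 to 18.5 Mb. The broad peak chr19:18261496-18265554 had 14.7 in replicate 1 and 13.5 in replicate 2, a mean of 14.1 ± 0.877 (SD, n = 2), with 313 and 298 fragments. At chr19:18490544-18491989 the folds were 14.04 and 12.4, with 160 and 154 fragments. At chr19:16599345-16600154 they were 12.9 and 12.1, with 88 and 91 fragments, the fewest among the 16 sites named by fold. This site ranked 1852 by IDR signal although by fold it ranked 167 in replicate 1 and 123 in replicate 2.

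The other 3 sites of the short arm lay in S-1. At chr19:4401707-4403187 the folds were 14.2 and 10.5, with 219 and 171 fragments. At chr19:7097481-7100138 they were 11.98 and 11.5, with 255 and 263 fragments, and at chr19:4123070-4124867 they were 11.6 and 11.2, with 284 and 239 fragments. The last had the higher background in replicate 1, at 23.7 against 20.5 in replicate 2, the reverse of most sites.

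On the long arm the highest mean fold, 16.7 ± 3.26 (SD, n = 2), was at chr19:39935379-39936872, with folds of 18.97 and 14.4 and 205 and 171 fragments. The site from 51353273 onward, described above, followed with 16.1 ± 3.32 (SD, n = 2). At chr19:50167943-50171197 the folds were 15.5 and 14.2, with 320 and 305 fragments, the most on this arm in both replicates. At chr19:55894515-55899082, the widest replicate 1 peak of the chromosome outside the intervals, the folds were 14.2 in replicate 1 and 15.2 in replicate 2, with 246 and 226 fragments. This was the only one of the 16 sites where fold was higher in replicate 2, and its summits were 283 bp apart.

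The remaining long-arm sites were spread over L-2 and L-3. At chr19:42363546-42365493 the folds were 14.5 and 11.1, with 281 and 254 fragments. At chr19:49998839-50000481 they were 14.2 and 10.9, with 312 and 273 fragments, and at chr19:47615024-47618165 they were 12.1 and 11.9, with 234 and 246. The last of the 8, chr19:45457986-45459444, had 13.4 and 9.08 with 160 and 122 fragments. The 8 sites spanned mean folds of 11.4 to 18.3 on the short arm and 11.2 to 16.7 on the long arm, so the arms overlapped in the height of their strongest sites.

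**Figure D2:**
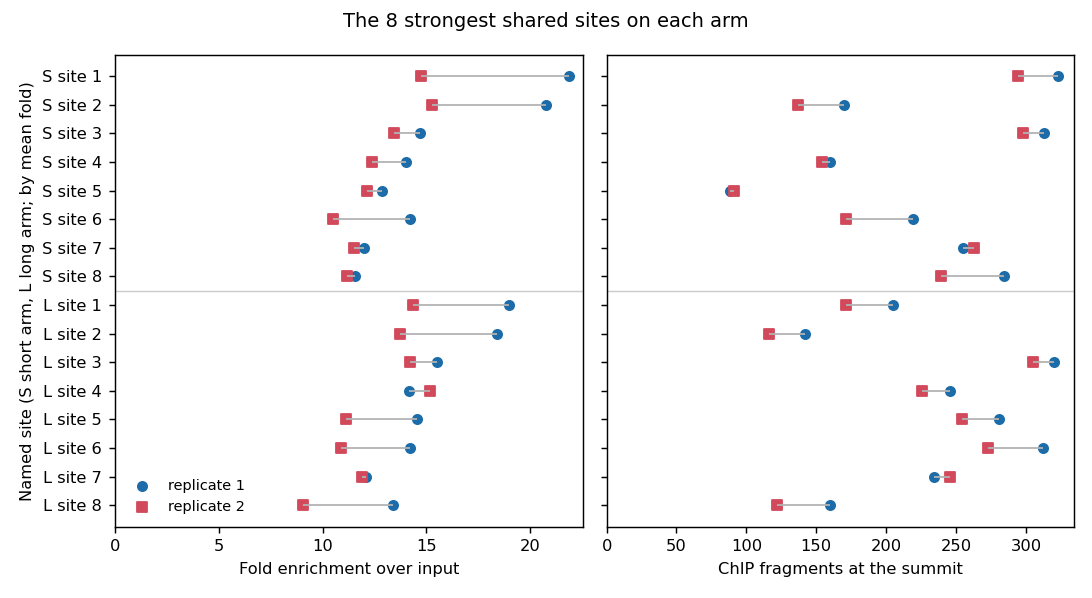
Fold enrichment (left x axis) and ChIP fragments at the summit (right x axis) in replicate 1 (circles) and replicate 2 (squares) for the 8 shared sites of highest mean fold on the short (S) and long (L) arm, in order of mean fold (y axis); lines join the replicates. Fold was higher in replicate 1 at 15 of 16 sites and fragments at 13 of 16, and the sites with the most fragments were not always those of highest fold.

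By the deposited IDR signal the order was different. The first 8 regions of the IDR list outside the intervals ranked 7 to 67 in the whole list. The first was chr19:42363595-42364934 (signal 1251), at a site with a mean fold of 12.8 ± 2.43 (SD, n = 2), and the second chr19:50168443-50170034 (signal 1237). The third, chr19:18334488-18336175 (signal 1165), was not among the sites named by fold, with folds of 10.4 and 8.48 and 242 and 231 fragments over high backgrounds of 22.3 and 26.4. The last of the 8, chr19:54692922-54695263 (signal 825), had folds of 11.9 and 10.2, and the other 4 coincide with sites named above. Over the 120 regions with peaks in both replicates, signal had a rank correlation of 0.751 with the fragments of both replicates together and 0.686 with mean fold, as a description across sites.

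Agreement between the replicates was uneven in direction. Of the 485 replicate 1 peaks, 234 shared at least 1 bp with a replicate 2 peak (48.2%, interval 43.7% to 52.8%), against 51.1% of all replicate 1 peaks. Of the 301 replicate 2 peaks, 258 shared at least 1 bp with a replicate 1 peak (85.7%, interval 81.2% to 89.5%), against 64.5% of all replicate 2 peaks and 63.5% (interval 62.6% to 64.4%) on the other autosomes and X. In the zinc-finger intervals the replicate 2 share was 72.8% (interval 66.2% to 78.8%), and on chromosome 17 it was 83.5% (interval 79.4% to 87.0%), which overlaps the interval found here. The replicate 1 list was longer here: it had 1.61 times as many peaks as replicate 2 (interval 1.39 to 1.87), against 1.19 times (interval 1.16 to 1.22) on the other autosomes and X. The ratio was 1.51 (interval 1.26 to 1.81) in the zinc-finger intervals and 1.55 (interval 1.36 to 1.76) on chromosome 17, intervals that overlap the one here. Among peaks of replicate 2 with a background above the floor, 86.1% (interval 81.6% to 89.8%) were shared here, against 73.6% (interval 72.7% to 74.6%) on the other autosomes and X. In the zinc-finger intervals it was 77.0% (interval 69.1% to 83.7%), which overlaps the interval here.

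Both arms showed the same pattern. On the short arm 48.4% of replicate 1 peaks and 87.5% of replicate 2 peaks were shared, and on the long arm 48.1% and 84.1%. All 21 replicate 2 peaks of the sparse stretch L-1 overlapped a replicate 1 peak (interval 83.9% to 100%), whereas 20 of its 47 replicate 1 peaks overlapped a replicate 2 peak. The lowest replicate 2 share was 77.8% in L-2 (28 of 36, interval 60.8% to 89.9%). The intervals of the 6 occupied stretches overlapped one another in each replicate.

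The unshared peaks were weak. Every one of the 54 replicate 1 and 37 replicate 2 peaks with a fold of 6 or more had a peak in the other replicate, as did 99.8% and 99.4% of such peaks over the whole lists. From a fold of 4 to 6, 51 of 54 replicate 1 peaks (94.4%, interval 84.6% to 98.8%) and 42 of 43 replicate 2 peaks (97.7%, interval 87.7% to 99.9%) were shared, against 83.0% (interval 81.4% to 84.6%) and 72.9% (interval 70.9% to 74.8%) on the other autosomes and X. In the zinc-finger intervals these shares were 67.5% (interval 56.1% to 77.6%) and 84.3% (interval 71.4% to 93.0%). The replicate 2 interval there overlaps the one here. From 3 to 4 the replicate 2 share was 81.5% (66 of 81, interval 71.3% to 89.2%). On the other autosomes and X it was 46.6% (interval 45.2% to 47.96%). In the zinc-finger intervals it was 63.9% (interval 53.5% to 73.4%), which overlaps the interval here. The replicate 1 shares were 51.4% here and 49.4% on the other autosomes and X, with overlapping intervals. Median replicate 2 background in this class was 10.1 here and 5.38 on the other autosomes and X, and its part was not tested. Below 3 the share was 24.3% in replicate 1 (58 of 239, interval 18.97% to 30.2%). In replicate 2 it was 80.7% (113 of 140, interval 73.2% to 86.9%). On the other autosomes and X the shares below 3 were 29.2% (interval 27.9% to 30.4%) and 74.6% (interval 73.1% to 76.0%). Both intervals overlap those found here. The strongest replicate 1 peak without a partner, chr19:5307724-5308286, had a fold of 4.87 with 43 fragments, lay in the IDR list and was 314198 bp from the nearest replicate 2 peak. The next, at chr19:9272433-9273391 and chr19:34797073-34797512, had folds of 4.70 and 4.12. In replicate 2 the strongest 3 had folds of 4.04, 3.92 and 3.92 with 22 or 23 fragments, and began at 9673967, 9674954 and 40540476.

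**Figure D3:**
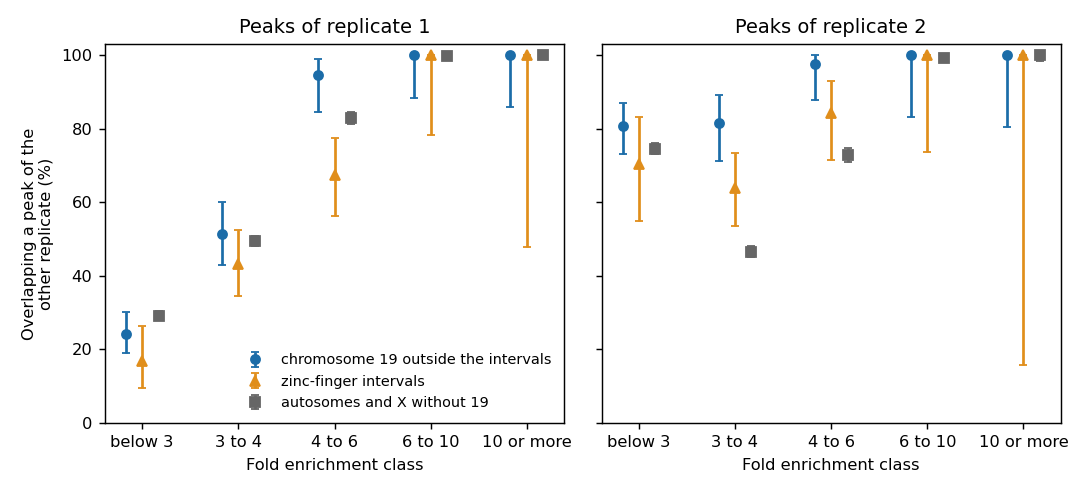
Percentage of peaks overlapping a peak of the other replicate (y axis) by fold enrichment class (x axis) for replicate 1 (left) and replicate 2 (right), with exact 95% Clopper-Pearson intervals, on chromosome 19 outside the intervals (circles), in the zinc-finger intervals (triangles) and on the other autosomes and X (squares). All peaks of fold 6 or more outside the intervals were shared, and from 4 to 6 the shares there, 94.4% and 97.7%, exceeded those of the other autosomes and X. From 3 to 4 the replicate 2 share there, 81.5%, also exceeded that of the other autosomes and X, 46.6%. The median background from 3 to 4 and from 4 to 6 was also higher outside the intervals than on the other autosomes and X.

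Shared peaks matched closely in place and height. The 234 pairs, which involve 231 distinct replicate 2 peaks, had a median distance between summits of 53 bp, against 78.5 bp on the other autosomes and X and 162 bp in the zinc-finger intervals. Summits lay within 100 bp of each other in 159 pairs (67.9%), against 58.6% and 40.6%. The rank correlation of fold was 0.8001 over the 234 pairs and 0.890 over the 159, and that of fragments was 0.896 and 0.956. These are descriptions across sites of 2 libraries that share their input background, whose own rank correlation was 0.868 over the 234 pairs.

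**Figure D4:**
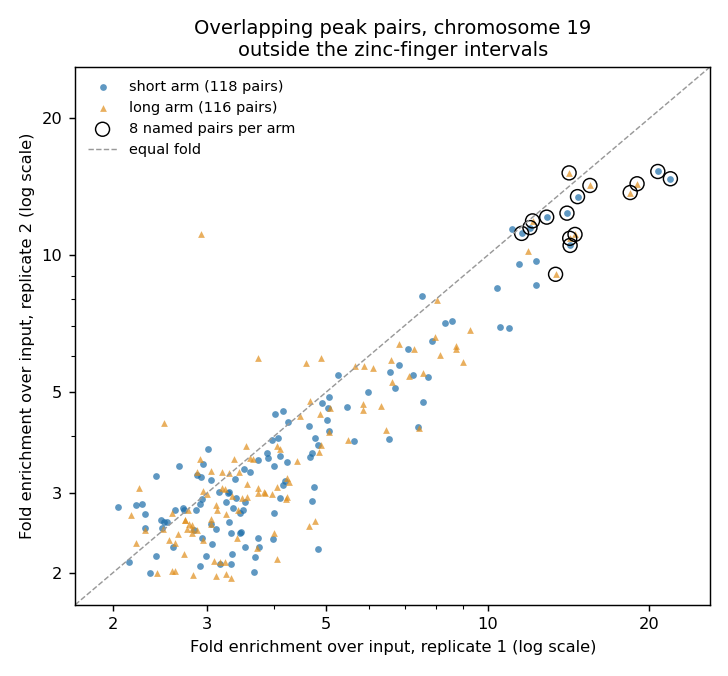
Fold enrichment of overlapping peak pairs in replicate 1 (x axis) and replicate 2 (y axis), both on log scales, for the short arm (circles, 118 pairs) and the long arm (triangles, 116 pairs); rings mark the 8 named pairs of each arm and the dashed line marks equal fold. Most points lie below the line, since fold was higher in replicate 1 in 187 of 234 pairs, and the arms overlap throughout.

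Fold enrichment was higher in replicate 1 in 138 of the 159 close pairs, with a median log2 ratio of replicate 1 over replicate 2 of 0.25. Over the whole lists it was higher in 3179 of 4284 close pairs, with a median of 0.20. It was higher in 22 of 23 close pairs with a mean fold from 6 to 10 and in 19 of 20 above, against 401 of 502 and 203 of 251 on the other autosomes and X. The background recovered in replicate 2 was 1.11 times that in replicate 1 wherever the summits were identical, so equal fragments gave a lower fold in replicate 2. Against the ratio over all close pairs of the lists, in which replicate 1 held 51.8% of the fragments, 0 of the 159 pairs differed between the libraries by a two-sided exact binomial test with Benjamini-Hochberg adjustment over all 4284 close pairs (lowest adjusted p = 1), and 1 of the 4284 did, or 0.0233%. At an unadjusted p under 0.05 there were 3 of 159 pairs, against 3.57% of all pairs. With the expected share taken instead from the smallest backgrounds, 3 of the 159 pairs and 56 of all pairs (1.31%) differed at an adjusted p under 0.05. The test compares 2 libraries and not conditions, and it leaves out peaks called in 1 library only. In simulated data over all 4284 close pairs it found 54.0% of 100 planted changes of 2-fold and 97.0% of 100 of 4-fold. So many planted changes ease the adjustment, and fewer may be found where few pairs differ. Differences of these sizes or smaller can have been missed.

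The lowest unadjusted p was at chr19:5827924-5828821 on the short arm, with 161 fragments in replicate 1 and 113 in replicate 2 (exact binomial p = 0.0216, adjusted p = 1) and folds of 10.9 and 6.91. The others were chr19:8385755-8387035, with 162 and 118 fragments, and chr19:47363167-47364156, with 79 and 51. All 3 were higher in replicate 1. Over the 159 pairs the log2 ratio of fragments had an SD of 0.23, against 0.28 from counting error, a spread that the choice of pairs called in both lists can narrow.

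The IDR list held most of the strong peaks and also many regions without a peak in both replicates. Peaks of both replicates overlapped 120 of its 169 regions (71.0%, interval 63.5% to 77.7%), against 63.3% of all IDR regions. A further 24 overlapped a peak of replicate 1 only, 1 of replicate 2 only and 24 of neither (14.2%, interval 9.32% to 20.4%), against 18.3% of all IDR regions. Replicate 1 only was also the more frequent case over all 4297 IDR regions, with 669 such regions against 121 for replicate 2 only. All 43 regions of highest signal, from 290 upward, had peaks in both, and so did 17 of the 42 regions of lowest signal, while 14 of these 42 had none. The whole IDR list was not split by signal in this way, so these counts are not shown to be particular to this part. Median signal was 248 for regions with peaks in both replicates and 172 for those with none. The whole IDR list had the same direction, with 215 and 162. The 3 regions of highest signal without any replicate peak were chr19:924902-926633, chr19:17000324-17001833 and chr19:50432000-50433739, with signals of 231, 227 and 222. The 1 region with a replicate 2 peak only, chr19:50093827-50096403, had a signal of 179 and a fold of 2.30.

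**Figure D5:**
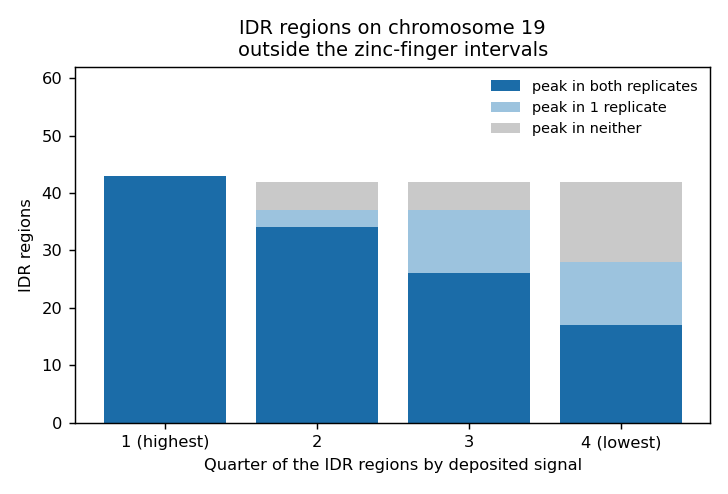
Number of IDR regions on chromosome 19 outside the zinc-finger intervals (y axis) in 4 classes of falling deposited signal (x axis), split by whether they overlap a peak in both replicates, in 1 replicate or in neither. All 43 regions of the highest class overlap peaks in both replicates, against 17 of 42 in the lowest. The whole IDR list was not split in this way.

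The arms differed in how often IDR regions had a peak in both lists, but within counting error. On the short arm 55 of 82 regions did (67.1%, interval 55.8% to 77.1%) and on the long arm 65 of 87 (74.7%, interval 64.3% to 83.4%). In stretch S-2 the share was 14 of 29 (48.3%, interval 29.4% to 67.5%), with 9 regions that had a replicate 1 peak only, and in S-1 it was 41 of 53 (77.4%, interval 63.8% to 87.7%). IDR regions were wide, with a median of 1628 bp, and 31 of them contained more than 1 replicate 1 peak, up to 4.

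Seen from the replicate lists, 178 of 485 replicate 1 peaks (36.7%) and 144 of 301 replicate 2 peaks (47.8%) overlapped an IDR region, against 32.8% and 31.4% of all peaks and 41.8% and 48.9% on chromosome 17. All 37 replicate 2 peaks of fold 6 or more and 49 of the 54 in replicate 1 did, against 76.9% of such peaks over the whole replicate 2 list and 79.9% over the whole replicate 1 list. On chromosome 17 it was 85.1% of such peaks in replicate 2 and 86.2% in replicate 1. The 5 strong replicate 1 peaks outside the list, named after their values were seen, began at 7918224, 14084726, 16939605, 46002703 and 49954738. Their folds were between 6.46 and 7.72 in replicate 1 and between 3.94 and 5.73 in replicate 2. In replicate 1 the median fold was 3.58 for peaks in the IDR list and 2.88 for the others, and in replicate 2 it was 3.68 and 2.84. On the other autosomes and X these medians were 3.30 and 3.28 in replicate 1, and 3.32 and 3.41 in replicate 2. On chromosome 17 they were 3.43 and 2.97 in replicate 1, and 3.51 and 3.05 in replicate 2. Differences between chromosomes in this contrast were not tested.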

How the data were processed

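Both replicate lists hold MACS2 peaks per the file headers, each of 1 ChIP library over input per the labels. Per the file headers, the IDR list is an optimal set. MACS2 2.1.1, BWA 0.7.13-r1126, Picard and hg19 are in the submitters' processing notes, while their settings were not stated there. The authors gave each replicate peak a fold enrichment (a ratio) and, on the −log10 scale, a p-value with its q-value. They gave IDR regions a deposited score and signal value on an unnamed scale. These values are the authors' own and serve to describe, rank and filter peaks.

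Fragments and background at each summit were recovered from fold and −log10 p with the MACS2 formulas. A whole fragment number fitted within 0.001 for 100% of the member peaks, and the step was tested on simulated data. At 45 of 45 pairs with an identical summit and a background above the floor, the backgrounds stood in the ratio of the floors, 1.11, within 0.1%. Both lists thus share 1 input background, and input has no values of its own here. Total reads were not analysed here, and fragments at the summit limit the precision.

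Peaks overlapped when they shared at least 1 bp, and each replicate 1 peak was paired with the overlapping replicate 2 peak of nearest summit. Python 3.11.15 with scipy 1.17.1 gave exact Clopper-Pearson and Poisson intervals at 95% and the two-sided exact binomial test of fragments, adjusted by Benjamini-Hochberg over all pairs with summits within 100 bp. The labels pair no condition. Lengths on chromosome 19 leave out the 6 intervals and the gap of 3 Mb between the arms. For the other autosomes and X, chromosome 17 included, whole lengths with their gaps were used. Positions count from 1.

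Named regions are, by rule, the 8 pairs of highest mean fold on each arm, the 8 IDR regions of highest signal, the 3 strongest unshared peaks per replicate, the 3 IDR regions of highest signal without a peak, the densest windows of 1 Mb, the longest empty stretches and pairs that differed. Members, rule and lists were chosen with earlier results of these data known. An hg19 genome or annotation was not used here, so transcript starts, recognition sequences, gene lists and sequences are not reported.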

Additional observations from a re-analysis of the deposited data

How the results depend on the processing

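Of 20 alternative values for the shares, densities and counts, 8 kept within the interval or count of their result. The 16 named sites from 1 replicate alone lay within their SD, as 2 values always do. Where no cause is given, the cause was not tested. The shares of shared peaks (48.2% in replicate 1, 85.7% in replicate 2) were 36.3% and 58.5% where each peak had to cover 50% of the other, and 32.8% and 52.8% where summits had to lie within 100 bp. Among the 250 peaks of highest −log10 p in replicate 1, an alternative chosen after seeing the data, 74.4% were shared. The share of IDR regions with peaks in both replicates (71.0%) became 54.4% when peaks needed a −log10 q of at least 5, which leaves fewer peaks. Density (3.91 IDR regions per Mb) was 2.78 for IDR regions with peaks in both replicates, and 6.96 to 11.2 from 1 replicate list alone, since those lists are longer. The density ratio to the zinc-finger intervals (0.788) was 0.436 to 0.465 from 1 replicate list alone. The count of pairs that differ between the libraries (0) became 3 when the expected share came from the smallest backgrounds (4.37 and 4.87 fragments), against 56 of all 4284 pairs (1.31%). All 3 were higher in replicate 1 and lay on the short arm, from 4401707, 5827924 and 8385755 onward, with adjusted p of 0.0456, 0.0302 and 0.0455. No paired analysis was possible because both ChIP libraries were called over a common input background. Shares of overlap cannot be had from 1 replicate. Alternatives for transcript starts and recognition sequences were not run. Counting error bears most on weak peaks, which had a median of 38 fragments below a fold of 6 in both replicates.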
